A study of Rattus norvegicus with 6 samples.

Results

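The transcripts described here encode cardiac transcription factors, the proteins that switch on heart muscle genes in the embryo and keep them on in the adult heart. The list was fixed by name, with earlier results of these data known. It holds 10 genes: Gata4, Gata6, Nkx2-5, Tbx5, Tbx20, Hand2, Mef2a, Mef2c, Mef2d and Srf. Of these, 9 stood in the deposited count table of 17487 gene symbols, each on 1 row, and Mef2c was not analysed here. All 9 passed the filter on low counts, which 9205 symbols passed in all. The RNA came from hearts of adult male Wistar rats, an outbred laboratory strain. A group of 3 rats received doxorubicin hydrochloride, an anthracycline cancer drug that damages the heart, at 3.75 mg/kg into the tail vein each week for 4 weeks. The control group of 3 rats received saline vehicle on the same schedule. Each rat gave 1 library, numbered 1 to 3 within its group, and sets of 3 values follow that order, and the chamber sampled and the time after the last injection were not given in the labels.

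These factors act together at the same regulatory DNA. GATA4 and GATA6 are zinc finger proteins, NKX2-5 is a homeodomain protein, TBX5 and TBX20 are T-box proteins, HAND2 is a basic helix-loop-helix protein, and the MEF2 proteins and SRF share the DNA-binding MADS box. GATA4, NKX2-5 and TBX5 bind each other and co-activate genes of the contractile apparatus and the natriuretic peptides. SRF binds the CArG box and is driven by myocardin in muscle, and MEF2 proteins are held in check by class II histone deacetylases.

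The libraries held 2219685 to 3508282 counts, and the 9 transcripts together took 0.0850% to 0.116% of them. Levels are given as CPM, read counts brought to a common library size by the trimmed mean of M-values (TMM). A level of 3 counts, taken as the lowest detectable, was 0.855 to 1.35 CPM. Transcript lengths were not at hand, so levels are compared between libraries and never between genes. The heart muscle markers were abundant in every library, with a summed level of 10 cardiomyocyte markers of 137814 to 159228 CPM in the controls and 112298 to 127446 CPM after treatment. The part of this lower sum in the factors' values was not tested. Much of it lay in Myh6 (mean 24591 CPM in the controls and 14821 CPM after treatment) and Mb (28032 and 18626 CPM). Of the 10 markers, only Pln and Mybpc3 had higher means after treatment. The myosin gene Myh7, which is not among the 10, had means of 5269 CPM in the controls and 20239 CPM after treatment. Control library 1 stood apart on the first principal component of log2 CPM, at -43.3 against -4.83 to 26.6 for the others. Atrial markers differed in which library was highest: the myosin light chain Myl7 was 164 CPM in control library 1 and at most 6.42 CPM elsewhere, the natriuretic peptide gene Nppa was highest in doxorubicin library 1, Dkk3 in doxorubicin library 3 and Kcna5 in control library 3.

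No cardiac transcription factor transcript differed between the groups past the adjusted threshold. With edgeR's quasi-likelihood test and Benjamini-Hochberg adjustment over all 9205 symbols, 0 of 9 had an adjusted p under 0.05, against 0.0543% of all tested symbols (0.0217% higher and 0.0326% lower), and DESeq2 and limma voom also called 0. At an unadjusted p under 0.05 there were 2 of 9, Tbx20 and Gata6, both higher in doxorubicin hearts, against 8.10% of all tested symbols (4.00% higher and 4.11% lower). Separate ranges in the 2 groups were seen for 1 of 9, Gata6, against 13.4% of all tested symbols (6.39% higher and 7.06% lower). The fitted log2 fold changes of doxorubicin over control ran from -0.42 for Nkx2-5 to 1.56 for Tbx20, with 5 above and 4 below 0. Their median was 0.01, beside 0.02 over all tested symbols.

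**Figure D1:**
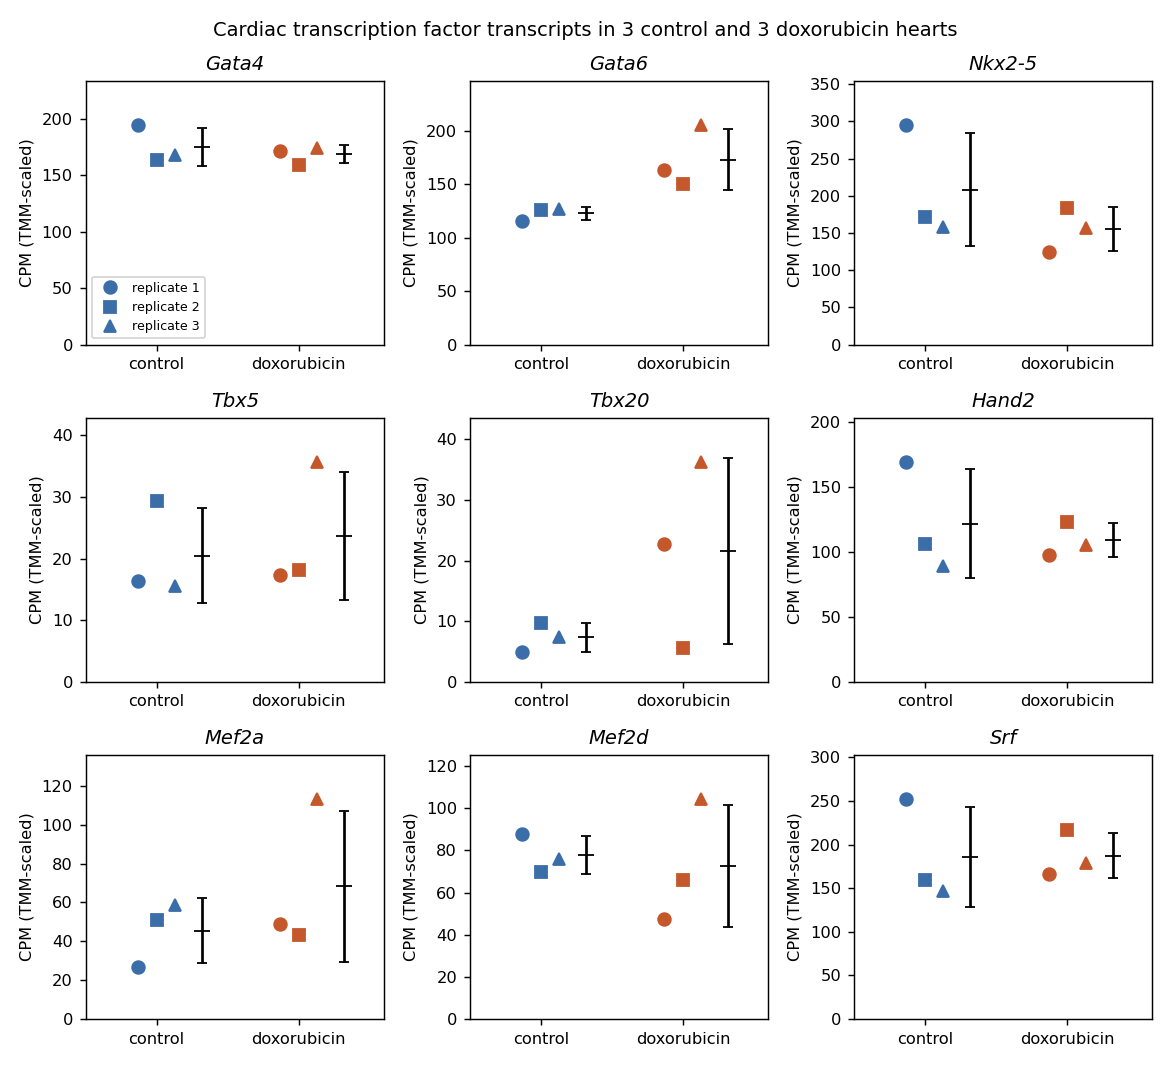
TMM-scaled CPM (vertical axes, starting at 0) of the 9 measured factors in control and doxorubicin hearts, 1 point per library with the replicate number as marker shape, and the group mean ± SD as the bar to the right. Gata6 is the only factor whose doxorubicin values (151 to 206 CPM) all lie above the control values (116 to 127 CPM), and control library 1 or doxorubicin library 3 holds the highest value of each factor.

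**Figure D2:**
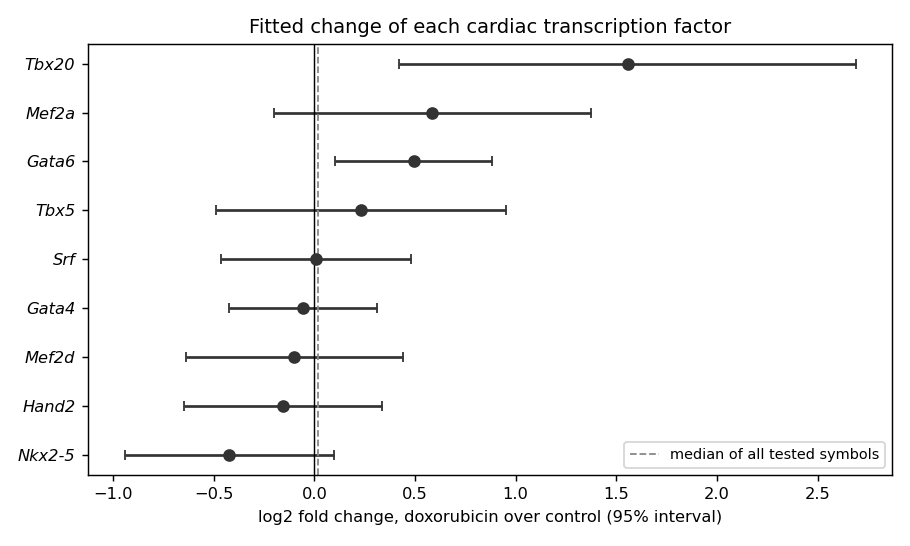
Fitted log2 fold change of doxorubicin over control (horizontal axis) with its 95% interval for each factor, sorted by size. The intervals of Tbx20 (0.42 to 2.69) and Gata6 (0.10 to 0.88) lie above 0, before any adjustment for the number of symbols tested, and the other 7 include it.

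Gata6 encodes a zinc finger factor needed for outflow tract and cardiomyocyte development, which is also made in vascular smooth muscle and fibroblasts of the heart. Its level was 116, 126 and 127 CPM in the controls against 163, 151 and 206 CPM after doxorubicin. Every doxorubicin heart was above every control heart, by a margin that was smallest for doxorubicin library 2. The means were 123 ± 6.15 CPM for the controls and 173 ± 28.8 CPM for the treated hearts (SD, n = 3), giving a fitted log2 difference of 0.49 (SE 0.18) with an unadjusted p of 0.0168 and an edgeR adjusted p of 0.471. The groups stood apart for 6.39% of all tested symbols in this direction. In bulk tissue, more RNA per cell and more cells that make the transcript cannot be told apart. Without doxorubicin library 3 the log2 fold change was 0.36 and the unadjusted p in edgeR was 0.0853.

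Summed markers of smooth muscle, fibroblasts and endothelium overlapped between the groups. The 9 smooth muscle and pericyte markers summed to 667 to 1025 CPM in the controls and 777 to 1036 CPM after treatment. The 9 fibroblast markers summed to 2789 to 3090 CPM in the controls and 2362 to 3938 CPM after treatment, and the 10 endothelial markers to 2265 to 2584 and 1825 to 2320 CPM. The macrophage sum did not overlap, at 261 to 273 CPM in the controls and 315 to 518 CPM after treatment over 10 genes. Of these, Ptprc, the pan-leukocyte gene, was listed at 0 in all libraries. Taken singly, only Lyz2 and Mrc1 of the tested macrophage markers did not overlap, and Adgre1 had a lower mean after treatment. Lyz2 had means of 97.3 CPM in the controls and 172 CPM after treatment, a large part of the sum. The part of any of these cell types in the Gata6 values was not tested.

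Gata4 encodes the paralogue of GATA6 that keeps natriuretic peptide and myosin genes active in cardiomyocytes, and its protein is known to be lost in anthracycline-treated heart cells. Its RNA was 194, 163 and 168 CPM in the controls against 172, 159 and 174 CPM after doxorubicin. The groups overlapped, and Gata4 varied least of the 9 factors within the doxorubicin group, where the SD was 4.80% of the mean. The fitted log2 fold change was -0.06 (SE 0.17) with a 95% interval of -0.42 to 0.31 and an edgeR adjusted p of 0.959. RefSeq's gene list places an lncRNA gene across Gata4, and the use of strand in the counting was not stated, so reads of that gene cannot be told apart from those of Gata4.

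The balance of the GATA paralogues was measured within each library as the Gata4 share of Gata4 and Gata6 counts, which needs no scaling between libraries. The control hearts had 62.6% (95% interval by Wilson's method 59.2 to 65.9), 56.4% (52.5 to 60.1) and 56.8% (53.8 to 59.8). After doxorubicin the shares were 51.2% (48.2 to 54.3), 51.4% (48.3 to 54.5) and 45.8% (43.1 to 48.6). The share was lower in each doxorubicin heart than in each control heart, although the counting intervals of the nearest libraries overlapped. The group means were 58.6% ± 3.47 and 49.5% ± 3.15 (SD, n = 3), a difference of -9.12 percentage points. The 2-sided exact permutation test gave p = 0.1, the smallest that 3 against 3 libraries can give. The difference lay between -10.2 and -7.12 points when any 1 library was left out.

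**Figure D3:**
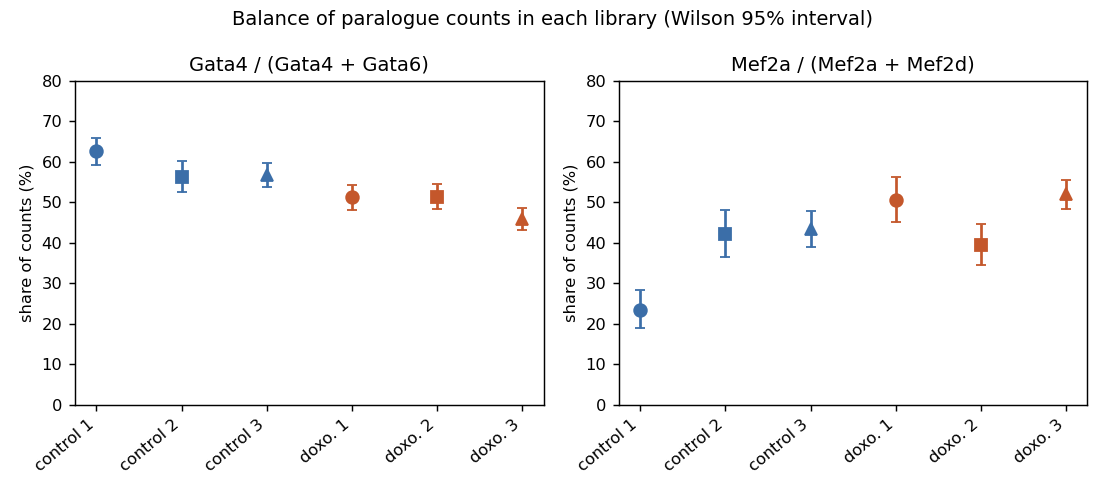
Share of counts (vertical axis, percent) of Gata4 among Gata4 and Gata6 (left) and of Mef2a among Mef2a and Mef2d (right) in each library, with Wilson 95% intervals that cover counting error only. The Gata4 share lies at 56.4% to 62.6% in control and 45.8% to 51.4% in doxorubicin hearts, while the Mef2a share overlaps between the groups.

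Tbx20 encodes a T-box factor that maintains the adult cardiomyocyte's contractile and calcium handling programme. It was read from 13 to 123 counts per library. Its level was 4.96, 9.77 and 7.38 CPM in the controls against 22.8, 5.62 and 36.3 CPM after doxorubicin. Doxorubicin hearts 1 and 3 were above all control hearts, and doxorubicin heart 2 lay within the control range. The means were 7.37 ± 2.40 and 21.6 ± 15.4 CPM (SD, n = 3). The log2 fold change of 1.56 (SE 0.52) had an unadjusted p of 0.0110 and an edgeR adjusted p of 0.417, and the difference was smaller than the SD of the doxorubicin group. Left out in turn, doxorubicin library 2 brought the log2 fold change to 2.02 and the edgeR adjusted p to 0.0219, while doxorubicin library 3 brought them to 0.96 and 0.822. Without control library 1 and doxorubicin library 3 together the log2 fold change was 0.75.

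Tbx5 encodes the T-box partner of GATA4 and NKX2-5, which is known to be more active in the atria and the conduction system than in the ventricles. Its level was 16.4, 29.3 and 15.6 CPM in the controls against 17.3, 18.1 and 35.7 CPM after doxorubicin. In each group 1 library stood well above the other two, and the groups overlapped. The fitted log2 fold change was 0.23 (SE 0.34), with a 95% interval of -0.49 to 0.95, and turned to -0.18 without doxorubicin library 3. The 8 atrial markers, of which 6 were tested, summed to 335 to 849 CPM in the controls and 447 to 3477 CPM after treatment. Nppa made up most of the highest sum, at 3252 CPM in doxorubicin library 1, and is also among the heart muscle genes listed below. Nppa, Dkk3 and Gja5 had higher means after treatment, and Myl7, Myl4 and Kcna5 lower ones, so the sum is no plain measure of atrial tissue. The part of the atrial markers in the Tbx5 values was not tested.

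Nkx2-5 encodes the homeodomain factor that marks the cardiac lineage and keeps conduction and contractile genes active. Its level was 295, 171 and 158 CPM in the controls against 125, 184 and 157 CPM after doxorubicin. Control library 1 was far above the rest, and the other 5 libraries overlapped. The means were 208 ± 75.5 and 155 ± 29.7 CPM (SD, n = 3), giving a fitted log2 difference of -0.42 (SE 0.24), and edgeR's adjusted p was 0.689. Without control library 1 and doxorubicin library 3 it was -0.09.

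Hand2 encodes a basic helix-loop-helix factor of right ventricle and outflow tract development that is also active in cardiac fibroblasts. Its level was 169, 106 and 89.5 CPM in the controls against 97.9, 123 and 106 CPM after doxorubicin. As with Nkx2-5, control library 1 was the highest and the other 5 overlapped. The fitted log2 fold change was -0.16 (SE 0.23), with a 95% interval of -0.65 to 0.33, and was 0.16 without control library 1. Its relative Hand1, a left ventricular factor, had 0 to 2 counts per library and was not tested.

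Srf encodes the serum response factor, which drives actin and other cytoskeletal genes. Its level was 252, 160 and 147 CPM in the controls against 167, 216 and 179 CPM after doxorubicin. The group means were nearly equal, at 186 ± 57.4 and 187 ± 25.8 CPM (SD, n = 3). The fitted log2 fold change was 0.01 (SE 0.22), and its 95% interval of -0.46 to 0.48 still allows changes of that size either way.

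Mef2a and Mef2d encode MADS box factors that act downstream of calcium and stress kinase signals in adult heart muscle. Mef2a was 26.7, 51.1 and 58.5 CPM in the controls against 48.8, 43.1 and 113 CPM after doxorubicin. Doxorubicin library 3 was the only doxorubicin heart above the control range. The fitted log2 fold change was 0.59 (SE 0.36), and edgeR's adjusted p was 0.721. The log2 fold change was 0.02 without that library.

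Mef2d was 87.8, 69.7 and 76.1 CPM in the controls against 47.5, 66.1 and 104 CPM after doxorubicin. Doxorubicin libraries 1 and 2 lay below and doxorubicin library 3 above every control value. The doxorubicin SD was 39.9% of the mean against 11.8% in control, and the fitted log2 fold change was -0.10 (SE 0.25). The Mef2a share of Mef2a and Mef2d counts was 23.3%, 42.3% and 43.5% in the controls against 50.7%, 39.4% and 52.0% after doxorubicin. The means were 36.4% ± 11.3 and 47.4% ± 6.92 (SD, n = 3), the groups overlapped, and the 2-sided exact permutation p was 0.3 with 0.1 the smallest possible. Without control library 1 the difference went from 11.0 to 4.51 percentage points.

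Across the 9 factors the highest value was always in control library 1 (4 factors: Gata4, Nkx2-5, Hand2 and Srf) or doxorubicin library 3 (5 factors: Gata6, Tbx5, Tbx20, Mef2a and Mef2d). Over all tested symbols, 47.3% had their highest value in these 2 libraries. The split followed, with exceptions, gene span, the length of the gene with its introns in RefSeq's GRCr8 gene list. The 3 factors with the shortest genes, Hand2 (3.34 kb), Nkx2-5 (6.57 kb) and Srf (9.29 kb), were highest in control library 1, and the longest, Mef2a (135 kb), in doxorubicin library 3. Gata4 (71.7 kb) was long and yet highest in control library 1.

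The same tilt was present over the whole table. Spearman's rho between a gene's deviation from its own mean log2 CPM and its span, across 8987 genes, was -0.37 in control library 1, 0.30 in doxorubicin library 3, 0.22 in control library 2 and between -0.04 and 0.01 in the other 3. Genes are not independent replicates, and these values describe the libraries. The rho between log2 fold change and span was 0.73 over the 9 factors and 0.22 over the 8987 genes. With the trend on span removed, Tbx20 had a log2 fold change of 1.45, Mef2a of 0.46 and Gata6 of 0.43, with edgeR adjusted p of 0.397, 0.707 and 0.462. Without control library 1 and doxorubicin library 3 together, a pair chosen because they hold the highest values of the factors, 0 of 9 factors had an edgeR unadjusted p under 0.05, Gata6 had a log2 fold change of 0.32 and Mef2a of -0.25.

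**Figure D4:**
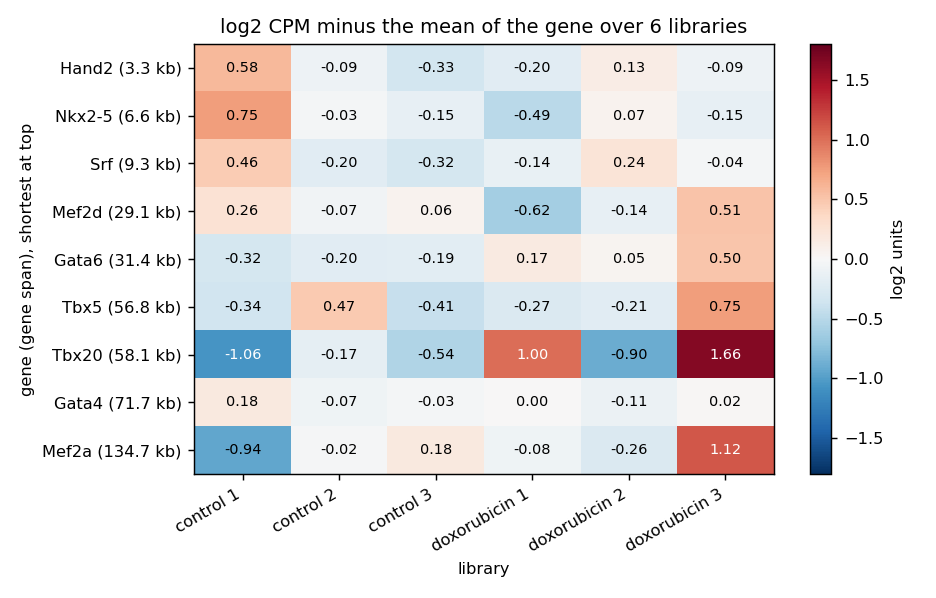
Difference of each library's log2 CPM from the gene's mean over 6 libraries (colour and printed value, log2 units) for the 9 factors, ordered by gene span from the shortest at the top. Control library 1 is above the mean for Hand2, Nkx2-5 and Srf (0.46 to 0.75) and below it for Tbx20 and Mef2a (-1.06 and -0.94), and doxorubicin library 3 is at 1.66 and 1.12 for the latter pair.

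Among the 36 pairs of factors, Hand2 and Srf varied most alike over the 6 libraries, with Pearson's r = 0.95 and Spearman's rho = 0.83 of log2 CPM. The r was 0.92 without control library 1 and 0.88 without the 2 libraries whose Hand2 level was farthest from the median. Nkx2-5 and Tbx20 were the most opposed pair, with r = -0.67 and rho = -0.89, and Hand2 and Mef2a were nearly as opposed, with r = -0.67 and rho = -0.71. Without control library 1 the r was -0.62 for the former pair and -0.19 for the latter. Without doxorubicin library 3 it was -0.81 for the former and -0.98 for the latter, so the values depend on the library left out. For Tbx20, the factor with the smallest p, the 3 most alike of 5849 other symbols with a mean of at least 20 CPM were Prickle1 (r = 0.999), Lgr4 (0.991) and Serinc1 (0.988). These correlations describe 6 libraries, some of which carry the span tilt, in opposite directions, and the 3 symbols were taken as the highest of all candidates. None of Prickle1, Lgr4 and Serinc1 passed the test of doxorubicin against control, with log2 fold changes of 0.27, 0.38 and 0.31.

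The promoters of 4 genes are shown for their part in these results: Srf, which holds its own binding element, Acta1, a known SRF target, Hand2, whose level followed Srf, and Tbx20, which had the largest fitted difference. Each window runs from base 250 to base 51 before the RefSeq transcript start, 200 bases 5′ to 3′ on the gene's strand, in build GRCr8. Capitals mark matches on either strand to a GATA element (AGATAA), a T-box element (GGTGTG), an NKX element (CAAGTG), an E-box (CANNTG, which includes the NKX letters), a CArG box or a MEF2 element.
Srf, chr9:21923826-21924025, plus strand: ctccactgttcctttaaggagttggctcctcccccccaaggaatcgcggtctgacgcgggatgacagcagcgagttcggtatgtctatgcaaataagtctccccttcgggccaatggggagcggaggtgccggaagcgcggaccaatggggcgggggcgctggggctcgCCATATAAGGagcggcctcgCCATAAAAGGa
Acta1, chr19:68784245-68784444, minus strand: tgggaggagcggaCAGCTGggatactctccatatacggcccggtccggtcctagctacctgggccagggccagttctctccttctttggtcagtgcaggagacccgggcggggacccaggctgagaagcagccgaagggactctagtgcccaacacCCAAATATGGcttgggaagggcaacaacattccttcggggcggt
Hand2, chr16:37931539-37931738, minus strand: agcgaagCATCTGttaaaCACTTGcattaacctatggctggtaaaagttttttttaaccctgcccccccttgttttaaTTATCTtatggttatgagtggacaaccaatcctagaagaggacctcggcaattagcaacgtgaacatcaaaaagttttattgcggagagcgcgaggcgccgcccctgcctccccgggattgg
Tbx20, chr8:31534060-31534259, minus strand: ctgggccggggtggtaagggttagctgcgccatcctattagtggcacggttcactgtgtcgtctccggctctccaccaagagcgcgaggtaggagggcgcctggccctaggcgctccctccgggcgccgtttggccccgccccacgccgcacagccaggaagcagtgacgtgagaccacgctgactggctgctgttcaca

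The Srf window held 2 CArG boxes, at bases 81 to 72 and 61 to 52 before the start, and the Acta1 window held 1, at bases 94 to 85. Of 27457 windows of the same length, 1.25% held a CArG box. The Hand2 window held a GATA element at bases 172 to 167, an NKX element at bases 232 to 227 and 2 E-boxes, of which 1 is the NKX element. GATA letters stood in 8.39%, NKX letters in 9.36% and an E-box in 57.4% of all windows. The Tbx20 window held none of the 6 motifs, and T-box and MEF2 letters stood in 12.6% and 0.419% of all windows. Windows were found for 8 of the 10 listed factors. Those of Nkx2-5, Tbx5 and Mef2a overlap the gene's own span in RefSeq's gene list, and the printed windows do not. Among these 8, a CArG box stood only in that of Srf, a GATA and an NKX element only in that of Hand2, and an E-box in those of Nkx2-5, Tbx5 and Hand2. A match is a description of letters and not of binding.

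Genes that work with these factors were read from 4 further lists, chosen with earlier results of these data known. The share of a list beside that of all tested symbols is therefore a description and no test of the list. Of 30 partners and repressors, 24 stood in the table and 23 were tested. With edgeR 0 passed the adjusted threshold, 2 had an unadjusted p under 0.05, both lower (8.70%, near the 8.10% of all tested symbols), and DESeq2 called 1 and limma voom 0. The median log2 fold change was 0.08. Hopx encodes a DNA-binding-deficient homeodomain protein that blocks SRF. It was 113, 80.9 and 59.4 CPM in the controls against 34.99, 32.5 and 46.0 CPM after doxorubicin, with no overlap. Its log2 fold change was -1.16 (SE 0.25), and edgeR's adjusted p was 0.125, and DESeq2 gave an adjusted p of 0.0109. Smarcd3, a chromatin remodelling subunit that works with GATA4 and TBX5, was 126 to 163 CPM in the controls and 96.4 to 113 CPM after treatment, giving a fitted log2 difference of -0.45 (SE 0.18). The 3 others with the smallest p overlapped between the groups: the methyltransferase gene Smyd1 (0.34), the helicase gene Ddx17 (0.32) and the repressor gene Klf15 (0.27). Myocardin itself, Myocd, was 26.4 to 35.1 CPM in the controls and 26.2 to 40.8 CPM after treatment.

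Of 32 other heart development factors, 30 stood in the table and 22 were tested. With edgeR 0 passed the adjusted threshold, 3 had an unadjusted p under 0.05, all higher (13.6%, against 8.10% of all tested symbols), and DESeq2 called 1 and limma voom 0. The groups did not overlap for 3 of 22 (13.6%, near the 13.4% of all tested symbols). Irx4 encodes a homeodomain factor of the ventricle. It was 56.9, 39.98 and 34.6 CPM in the controls against 88.3, 89.5 and 140 CPM after doxorubicin. All doxorubicin hearts were above all control hearts, with a fitted log2 difference of 1.28 (SE 0.24), and edgeR's adjusted p was 0.0833. Its adjusted p was under 0.05 in 5 of 19 alternatives and ran from 0.00135 to 0.390 over them, with 0.00155 in DESeq2 and 0.129 in limma voom. Meis2, a homeodomain cofactor gene, was 39.7 to 48.6 CPM in the controls and 57.1 to 71.8 CPM after treatment. Foxp1, a forkhead repressor gene, was 6.25 to 7.55 and 9.73 to 12.8 CPM. Their log2 fold changes were 0.54 (SE 0.20) and 0.72 (SE 0.33), with edgeR adjusted p of 0.454 and 0.594. The Notch effector gene Heyl (-0.33) and the epicardial gene Wt1 (-0.30) overlapped between the groups. The GATA relative Gata5 was 42.6 to 76.4 and 43.7 to 71.0 CPM.

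Of 40 heart muscle genes that the factors are known to bind, 38 stood in the table and 34 were tested. With edgeR 1 passed the adjusted threshold, Ryr2, while DESeq2 called 2, Ryr2 and Acta1, and limma voom 0. At an edgeR unadjusted p under 0.05 there were 10 of 34 (29.4%, against 8.10% of all tested symbols), 5 in each direction. The list was chosen with earlier results of these data known, so its shares do not test it. The groups did not overlap for 9 of 34 (26.5%, against 13.4%), and the median log2 fold change was -0.03. Among the 9 was the calcium pump gene Atp2a2, read from only 13 to 61 counts per library (mean 10.1 CPM in the controls and 17.1 CPM after treatment). So few counts leave the level of Atp2a2 and its difference between the groups uncertain, and the reason for them was not tested. Ryr2, the calcium release channel gene, summed over 2 rows of the table, fell from 549, 775 and 785 CPM in control libraries 1, 2 and 3 to 201, 320 and 166 CPM in doxorubicin libraries 1, 2 and 3 (log2 fold change -1.62, SE 0.25, edgeR adjusted p 0.0440). Leaving out any single library other than doxorubicin library 2 took its edgeR adjusted p to between 0.0773 and 0.182. Acta1, the skeletal actin gene with the CArG box printed above, was 1026, 930 and 600.3 CPM in the controls against 2647, 1137 and 1490 CPM after doxorubicin. The groups did not overlap, with a fitted log2 difference of 1.05 (SE 0.29), and edgeR's adjusted p was 0.261 and that of DESeq2 0.0322. Without doxorubicin library 1 the log2 fold change of Acta1 was 0.63. Myh7, the beta myosin gene, had a log2 fold change of 1.94, Nppb, the B-type natriuretic peptide gene, of 0.91 and Mb, the myoglobin gene, of -0.59, with edgeR adjusted p of 0.0944, 0.367 and 0.364. The groups overlapped for Nppb, which was highest in doxorubicin library 1 (503 CPM) and had a log2 fold change of 0.45 without it. Slc8a1 and Smpx were listed at 0 in all libraries.

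Of 38 symbols listed as targets of SRF and myocardin, 35 stood in the table and 29 were tested. Among the missing symbols were Ctgf and Cyr61, older names of Ccn2 and Ccn1, which are also on the list and were tested. With edgeR 0 passed the adjusted threshold, 6 had an unadjusted p under 0.05, 4 higher and 2 lower (20.7%, against 8.10% of all tested symbols), and DESeq2 called 2 and limma voom 0. The median log2 fold change was -0.02, and the groups did not overlap for 8 of 29 (27.6%, against 13.4%). This list too was chosen with earlier results of these data known, so its shares do not test it. Abra encodes an actin-binding protein that activates SRF in striated muscle. It was 36.3, 27.5 and 46.6 CPM in the controls against 124, 67.1 and 91.4 CPM after doxorubicin, with no overlap. Its log2 fold change was 1.34 (SE 0.26), and edgeR's adjusted p was 0.0833, or 0.508 without control library 1 and doxorubicin library 3. Tpm2, a tropomyosin gene read from at most 42 counts, was 1.78 to 4.54 CPM in the controls and 9.43 to 13.5 CPM after treatment (log2 fold change 2.02, SE 0.43, edgeR adjusted p 0.125). DESeq2 called Abra and Tpm2. Tpm2 shares sequence with its paralogue Tpm1, which was listed at 0 in all libraries, so its level is uncertain.

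Ccn2, a matricellular growth factor gene, was 112, 72.0 and 145 CPM in the controls against 618, 243 and 209 CPM after doxorubicin. Its groups did not overlap, and the fitted log2 fold change was 1.695 (SE 0.41), and edgeR's adjusted p was 0.207. Myl9, a smooth muscle myosin light chain gene, was 106 to 131 CPM in the controls and 76.9 to 94.0 CPM after treatment, giving a fitted log2 difference of -0.48 (SE 0.18), while Acta2 (-0.44), Tagln (-0.45) and Lmod1 (-0.02), also smooth muscle genes, had overlapping groups. The actin severing gene Dstn was 89.4 to 104 and 106 to 149 CPM, giving a fitted log2 difference of 0.42 (SE 0.19). The immediate early genes Fos and Egr1, classic SRF targets, were at 0.852 to 13.2 CPM in all libraries and overlapped between the groups.

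**Figure D5:**
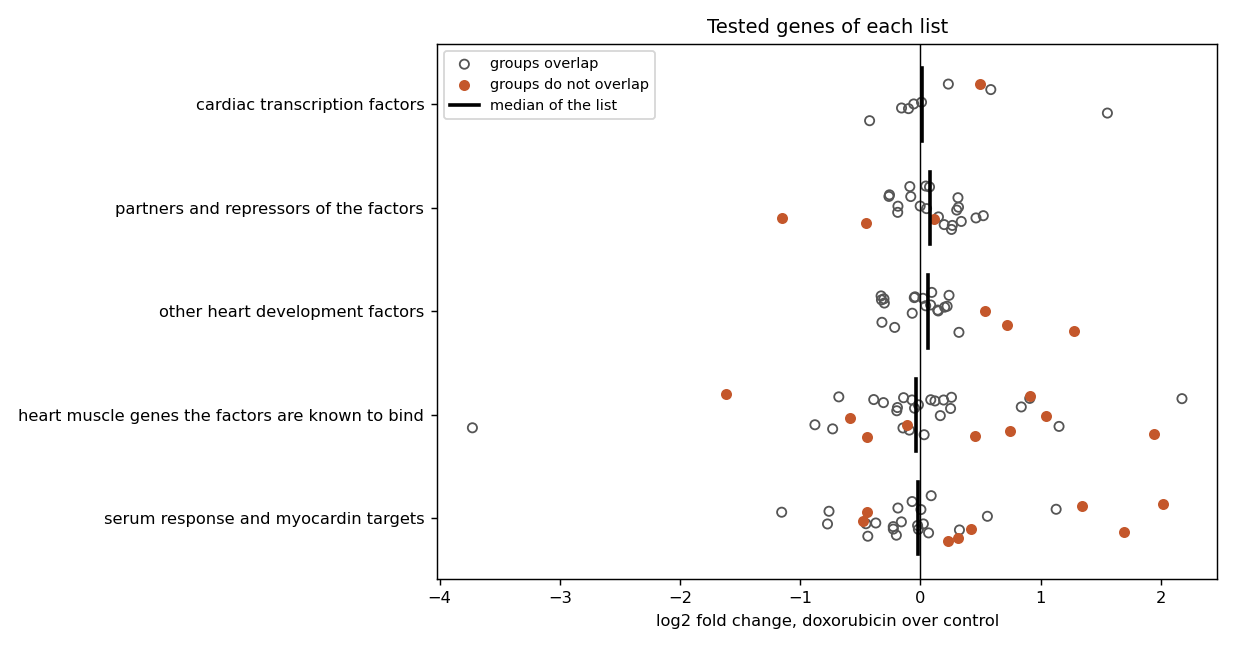
Fitted log2 fold change of doxorubicin over control (horizontal axis) of each tested gene in the factor list and the 4 related lists, with filled points where no value of a group lay within the range of the other and a black bar at the median of each list. The medians lie between -0.03 and 0.08, and the widest spread is among heart muscle genes and SRF targets.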

How the data were processed

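The authors deposited raw read counts per gene name for 6 mRNA libraries, with no normalization. Per the submitters' processing notes, FastQC, Trimmomatic, STAR and HTSeq were used with the build mRatBN7.2, and their settings, the use of strand and the annotation are not given in the sources used here. Rows of a symbol were summed. Groups came from the sample titles. The main test was edgeR 4.0.16 (R 4.3.3), a quasi-likelihood fit of treatment with TMM factors, robust dispersion and filterByExpr (minimum count 10, minimum total 15). Its p-values were adjusted over 9205 symbols by the Benjamini-Hochberg method at 0.05. The fit was also run on simulated counts with known changes. These held no span tilt and no outlying library, so that run does not cover those features of the real libraries. Standard errors are the absolute log2 fold change over the square root of F. log2 CPM used a prior count of 2. Alternatives used DESeq2 1.42.0, limma 3.58.1, other scalings and filters, the replicate number as a block, a loess correction for gene span and left-out libraries. Intervals of log2 fold changes come from the edgeR fit, which combines a gene's spread between animals with dispersion shared across genes. Wilson intervals of shares cover counting error only and leave out the spread between animals. Reads without molecular identifiers can repeat a molecule, so these intervals can be too narrow even for counting error. Gene spans, names and promoters are from RefSeq GRCr8, which matched 15582 of 17487 symbols (89.1%), and coordinates in that build are given for promoters only. Besides the factors, the text names, from each related list, every gene past the threshold and the 5 with the smallest p, and for the factor with the smallest p the 3 most alike symbols. Other genes, such as Myocd, Gata5, Acta2, Tagln, Lmod1, Fos, Egr1, Hand1, Myl7, Nppa, Dkk3 and Kcna5, were chosen after their values were seen, as were the 4 promoters printed and the motifs searched. The factors and lists were chosen with earlier results of these data known. The Mef2 share was planned over Mef2a, Mef2c and Mef2d and was computed from Mef2a and Mef2d.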

Additional observations from a re-analysis of the deposited data

How the results depend on the processing

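The alternative that left out control library 1 and doxorubicin library 3 together was chosen after seeing the data, because each factor is highest in 1 of them, so it is selected on the values it tests and is no independent check. Where a result changed, the cause was not tested. The count of factors past the adjusted threshold was 0 in each alternative except without doxorubicin library 2 (range 0 to 1 over left-out libraries). The count at an unadjusted p under 0.05, 2 in the report, was 1 with voom, 0 without both of those libraries and 0 to 3 when single libraries were left out. The 5 symbols called over the whole table became 0 with library size only (713 at an unadjusted p under 0.05), 61 without a filter, 1 at a mean CPM of at least 5, 74 with DESeq2, 0 with voom (740 unadjusted), 1 with non-robust dispersion, 9 with the span correction, 1 with 1-row symbols and 0 to 35 with single libraries left out. The heart muscle list's 1 call became 0 with library size only, a mean CPM of at least 5, voom, non-robust dispersion or 1-row symbols, 2 with DESeq2, and 0 to 2 with libraries left out. With 1-row symbols Ryr2, which is on 2 rows, was not among the symbols tested, so the call was not tested there. There was 1 call in place of 0 among partners without a filter and with DESeq2. There was also 1 among development factors in the same settings and without both libraries, and 0 to 1 with libraries left out. For SRF targets they were 2 without a filter and with DESeq2, 1 with the span correction, and 0 to 1 with libraries left out.

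With the replicate block 13 symbols, 2 heart muscle genes and 1 SRF target passed, and with the span correction and the block 22, 2 and 1, plus 1 development factor. Same-numbered libraries are different animals and did not deviate together (mean r -0.07 over 3 pairs, from -0.19 to 0.02), so the block has no basis in the design. No factor was called under it.

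Log2 fold changes changed sign for Gata4 with library size only (0.035), a scaling that put the median of all symbols at 0.10, without control library 1 (0.031) and without both libraries (0.0078), and ran from -0.092 to 0.031 over single left-out libraries. Hand2 changed sign without control library 1 (range -0.34 to 0.16) and without both (0.19). Srf did so without control library 2 (-0.076), control library 3 (-0.14) or doxorubicin library 2 (-0.095), with a range of -0.14 to 0.30. Mef2d did so without doxorubicin library 1 (range -0.45 to 0.14), Tbx5 without doxorubicin library 3 (range -0.18 to 0.58) or both (-0.30), and Mef2a without both (-0.25). Gata6 (0.32 to 0.59), Tbx20 (0.75 to 2.02) and Nkx2-5 (-0.59 to -0.08) kept their direction in all 19 alternatives. The Mef2a share difference ran from 4.51 to 14.99 points with single libraries left out.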

Other observations

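Several genes of the lists were listed at 0 counts in all 6 libraries, among them Tpm1, Flna, Fhl1 and Myh9 of the SRF targets, Slc8a1 and Smpx of the heart muscle genes, and the development factors Isl1 and Nkx2-6. The atrial gene Sln was read from 60 and 59 counts in control libraries 1 and 3 but from 0 to 6 elsewhere. Mef2b, the fourth Mef2 gene, had 0 to 7 counts per library, and the Mef2 repressor gene Hdac4 had 23 counts in doxorubicin library 3 and 5 to 9 in the others. The muscarinic receptor gene Chrm2 was 67.8 CPM in doxorubicin library 3 and 9.93 to 21.8 CPM in the other 5 libraries, and its groups overlapped. These genes were chosen after their values were seen.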
